A study of Mus musculus with 26 samples.

Results

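The comparison described here asked whether the liver of leptin-deficient mice responded differently to leptin given into the brain and to leptin given under the skin. The measure was the interaction, that is the change with intracerebroventricular leptin (LEP-ICV minus VEH-ICV) minus the change with subcutaneous leptin (LEP-SQ minus VEH-SQ), on the log2 scale. It was computed for all 11001 probes detected on at least 4 arrays, of 25697 on the array, which stand for 7953 named genes. A positive interaction means that the level moved further up, or less far down, with brain leptin. Livers of 16 of the 26 arrayed mice entered it, 4 in each of the 4 groups, with 1 Illumina MouseRef-8 v2.0 array per mouse. All 16 were ob/ob females on the C57BL6 background, which make no functional leptin. All received a 12-day treatment infusion from an osmotic pump, at an age of 15 weeks when treatment began. VEH-SQ mice received saline and LEP-SQ mice 10 µg/d leptin under the skin. VEH-ICV mice received artificial cerebrospinal fluid and LEP-ICV mice 1.5 µg/d leptin through a cannula in the lateral ventricle. LEP-ICV mice were drawn only from those that lost weight, a selection not made in LEP-SQ, so route, dose, vehicle, surgery and that selection cannot be told apart in the interaction. The authors also reported a larger weight loss and a larger fall in serum insulin with brain leptin than with subcutaneous leptin. The mean food intake they gave was also lower with brain leptin than with subcutaneous leptin. Effects of these differences cannot be told apart from the route either. The other arrays were 6 of B6 mice and 4 of ob/ob mice assigned brain leptin that did not lose weight (LEP-ICV*). They helped to estimate the spread and are not in the contrast.

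Leptin is the hormone of fat cells that reports energy stores to the hypothalamus and restrains feeding. From the brain it reaches the liver indirectly, through the autonomic nerves, through other hormones and through reduced food intake, while leptin under the skin enters the blood and can also meet leptin receptors outside the brain. The ob/ob liver is fatty, with high synthesis of fatty acids. A few regulatory systems recur in the results. The integrated stress response slows translation when amino acids are short or proteins misfold and turns on transcription factors such as ATF4 and ATF3. The SREBP factors turn on the synthesis of fatty acids and sterols. Macrophages that take up lipid and dying cells switch on a program marked by Trem2, Gpnmb and Mmp12.

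The tissue label was checked with genes of plasma proteins made by hepatocytes. Over the 26 arrays the mean log2 level was 15.63 for Apoa1, 15.52 for Ttr and 14.14 for Serpina1a. It was only 9.36 for Alb, with a lowest array at 6.54, and each of these genes was detected on all 26. The arrays fell into a low background class, in which the median signal of undetected probes was 105.5 to 122.3 on 12 arrays, and a high class, in which it was 160.8 to 198.2 on 14. The vehicle groups lay wholly in the low class and LEP-SQ wholly in the high one, and LEP-ICV was split, with 2 arrays in each. The interaction is therefore given without the class, with the class as a fixed block, and within classes. The within-class value sets the 2 high-class LEP-ICV arrays against LEP-SQ and then subtracts VEH-ICV minus VEH-SQ, so that a shift shared by all arrays of a class cancels. Detected probes numbered 6786 to 8516 in VEH-SQ, 9049 to 10332 in LEP-SQ, 7059 to 7992 in VEH-ICV and 7880 to 11117 in LEP-ICV. The number of arrays limits the precision, with a median standard error of the interaction of 0.44 over all genes.

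Of 7953 genes, 136 (1.71%) had an interaction past a Benjamini-Hochberg adjusted p of 0.05 in limma's moderated test. The interaction was positive for 73 genes (0.918%) and negative for 63 (0.792%). Among the positive ones were genes of amino acid shortage and of lipid-laden macrophages, and among the negative ones genes of cholesterol synthesis, Srebf1, glutathione S-transferases of the theta class and enzymes of amino acid breakdown. With the class as a block 56 genes were higher (0.704%) and 41 lower (0.516%), and within classes 26 were higher (0.327%) and 21 lower (0.264%). Of the 136 genes, all 136 kept their sign with the block and within classes, 70 were called with the block, and 40 were called in all 3 ways, 21 higher and 19 lower. The smallest interactions called were 1.13 and -1.23. Slc27a5, at -1.69, was the last gene inside the threshold with an adjusted p of 0.0491 and Mllt11, at 1.52, the first outside with 0.0539. The authors' own log2 values gave 96 genes higher and 54 lower, of which 98 were among the 136. With them Asns, Srebf1, Nrg1, Sucnr1, Sqle, Dct, Hamp2, Gm4956, Gadd45b, Acss2, Dhcr7 and Timp1, among the genes named in the results, were not called, and the interaction was 0.72 for Atf3, 1.56 for Asns and -1.89 for Srebf1.

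The interaction can be read as LEP-ICV minus LEP-SQ, less VEH-ICV minus VEH-SQ. Between the leptin groups 1183 genes differed (14.9%), and between the vehicle groups 0 differed (0%) in limma's test, with 343 genes at an unadjusted p under 0.05 and a lowest adjusted p of 0.779. The count between the leptin groups was 426 with the class as a block and 316 within classes, and array quality weights gave 1206 genes between the vehicle groups. Among the 136 called genes the leptin part had a median size of 1.72 and the vehicle part one of 0.27, and the vehicle part exceeded the leptin part for 6 genes. For 118 of the 136 genes the vehicle part had the sign that enlarges the interaction, which the selection of large interactions favours. LEP-ICV and LEP-SQ did not overlap for 127 called genes (93.4%, against 15.9% of all genes), and VEH-ICV and VEH-SQ did not overlap for 17 (12.5%, against 3.85% of all genes). The calls were made on these same values. The selection therefore favours separated groups and large parts, and the contrast with all genes is no independent result.

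**Figure D1:**
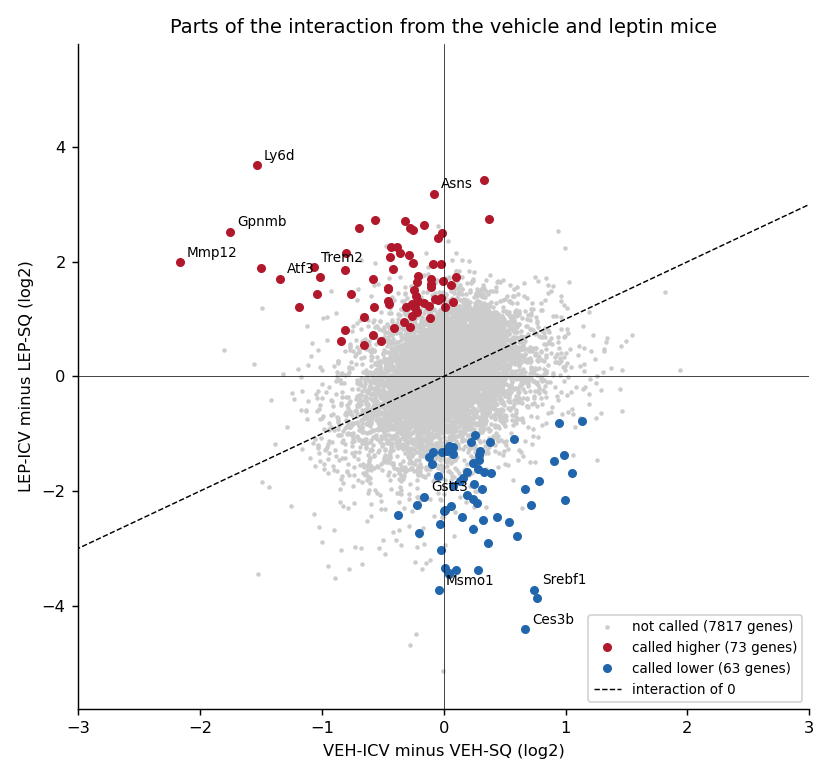
Each point is a gene, with VEH-ICV minus VEH-SQ on the horizontal axis and LEP-ICV minus LEP-SQ on the vertical axis, both as differences of mean log2 levels, and the dashed line marks an interaction of 0. The 136 called genes, 73 higher in red and 63 lower in blue, spread mainly along the vertical axis, and Mmp12, Gpnmb, Ly6d and Atf3 stand to the left because VEH-ICV was below VEH-SQ.

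Genes of amino acid starvation and the integrated stress response gave 4 calls among 20 tested members, all higher with brain leptin: Fgf21, Asns, Nupr1 and Atf3. This is 20% of the list, against 1.71% of all genes, and the list had a median interaction of 0.87 against 0.06 over all genes. With the class as a block 2 of them, Asns and Atf3, were called, and within classes 1, Atf3. The promoters of these 4 genes are shown because each holds the letters of an amino acid response element, the site to which ATF4 and its relatives are known to bind. The letters searched were TGATGNAA on both strands, and capitals mark the match, which reads TTGCATCA where the element lies on the opposite strand. Each sequence runs from 250 bases before to 50 bases after the transcription start, in RefSeq's GRCm38.p6 annotation.
Asns (chr6:7693160-7693459, minus strand): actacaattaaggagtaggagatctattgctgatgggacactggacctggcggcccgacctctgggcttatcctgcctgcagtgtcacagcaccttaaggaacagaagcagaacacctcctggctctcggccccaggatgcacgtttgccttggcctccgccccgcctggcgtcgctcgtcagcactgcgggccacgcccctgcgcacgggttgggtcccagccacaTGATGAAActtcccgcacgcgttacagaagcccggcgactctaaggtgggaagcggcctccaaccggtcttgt
Atf3 (chr1:191183284-191183583, minus strand): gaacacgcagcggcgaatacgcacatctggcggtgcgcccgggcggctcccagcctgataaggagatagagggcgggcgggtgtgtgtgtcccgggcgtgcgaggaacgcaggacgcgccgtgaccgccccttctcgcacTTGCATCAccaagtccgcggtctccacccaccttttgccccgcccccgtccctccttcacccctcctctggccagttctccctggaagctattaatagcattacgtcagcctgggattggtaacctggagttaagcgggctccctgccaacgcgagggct
Nupr1 (chr7:126625421-126625720, minus strand): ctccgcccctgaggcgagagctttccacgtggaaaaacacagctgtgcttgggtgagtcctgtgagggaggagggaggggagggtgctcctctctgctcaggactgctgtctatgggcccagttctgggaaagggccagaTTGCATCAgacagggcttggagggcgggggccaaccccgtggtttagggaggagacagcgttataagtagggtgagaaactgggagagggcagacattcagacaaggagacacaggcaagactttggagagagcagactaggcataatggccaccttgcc
Fgf21 (chr7:45615441-45615740, minus strand): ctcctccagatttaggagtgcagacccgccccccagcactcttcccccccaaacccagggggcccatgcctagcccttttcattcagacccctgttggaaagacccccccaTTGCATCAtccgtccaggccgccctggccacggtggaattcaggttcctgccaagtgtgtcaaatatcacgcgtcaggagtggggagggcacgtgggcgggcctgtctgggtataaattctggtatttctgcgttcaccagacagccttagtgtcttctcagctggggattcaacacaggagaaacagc
The match began 23 bases before the start in Asns, 110 in Atf3, 110 in Nupr1 and 139 in Fgf21. Of the 27025 genes in the promoter table, 4.51% hold the letters in at least 1 promoter, as do 2.86% of the 6531 tested genes that have an entry. Among the 17 tested list members with a promoter entry it was 6, with Chac1 and Vldlr, which were not called, beside the 4 shown. Of the 65 genes called higher with an entry 5 hold it, these 4 and Arhgef2, a guanine exchange factor named after its value was seen, and of the 50 called lower 2 do. A match of letters is a description and does not show that a factor was bound.

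Asns makes asparagine from aspartate and is a standard target of ATF4. With vehicle, Asns had log2 levels of 6.17, 5.08, 5.26 and 5.42 by the subcutaneous route and 5.42, 4.97, 5.66 and 5.55 by the brain route, and with leptin it had 6.95, 5.49, 6.19 and 6.73 and 8.25, 11.31, 9.12 and 9.43. All 4 LEP-ICV mice were above every other mouse, and the 3 other groups overlapped. The interaction of Asns was 3.27 ± 0.66 (SE, adjusted p = 0.0117), 3.15 (adjusted p = 0.0292) with the class as a block and 3.01 (adjusted p = 0.0681) within classes. Its probe was not detected on any array of VEH-SQ or VEH-ICV, so both vehicle levels are bounds and the size of the interaction has none. Atf3 is a stress-induced transcription factor of the ATF family. Atf3 measured 6.77, 6.51, 6.39 and 7.0 (log2 level) in the VEH-SQ mice and 5.22, 5.47, 5.66 and 4.95 in the VEH-ICV mice, against 7.01, 6.07, 6.14 and 6.48 in the LEP-SQ mice and 7.33, 8.81, 8.06 and 8.33 in the LEP-ICV mice. LEP-ICV was above all other mice, but VEH-ICV also lay below VEH-SQ without overlap, and the difference of the vehicle means, -1.35, made up part of the interaction of 3.05 ± 0.51 (SE, adjusted p = 0.00376). The probe was not detected on any VEH-ICV array and was detected on 2 of 4 VEH-SQ and 3 of 4 LEP-SQ arrays, so the size of the interaction is uncertain. The interaction of Atf3 was 3.12 (adjusted p = 0.00874) with the class as a block and 3.12 (adjusted p = 0.0168) within classes.

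Nupr1 is a small nuclear protein induced by cell stress, and Fgf21 is a hormone that the liver secretes in fasting and when dietary protein is low. Single LEP-ICV mice had log2 levels of Nupr1 of 9.86, 11.59, 11.60 and 10.48, those of LEP-SQ 8.25, 6.83, 7.13 and 7.59, those of VEH-ICV 7.49, 7.81, 7.45 and 6.88 and those of VEH-SQ 7.45, 5.08, 7.88 and 7.88. The log2 levels of Fgf21 were 9.38, 10.36, 9.85 and 10.37 in VEH-SQ mice, 9.76, 10.34, 8.43 and 9.17 in VEH-ICV mice, 10.33, 7.90, 10.53 and 10.61 in LEP-SQ mice and 11.66, 13.46, 11.90 and 13.28 in LEP-ICV mice. LEP-ICV was above every other mouse for each gene. The interaction was 3.10 ± 0.73 (SE, adjusted p = 0.0295) for Nupr1 and 3.30 ± 0.80 (SE, adjusted p = 0.0362) for Fgf21, and with the class as a block it was 2.89 (adjusted p = 0.064) and 2.96 (adjusted p = 0.0794). Members of the same list that did not pass were Atf4, the translationally controlled factor at the head of the response, at -0.36 (adjusted p = 0.866), Atf5 at 0.92 (adjusted p = 0.403) and Chac1, which degrades glutathione, at 0.60 (adjusted p = 0.671). Among 16 aminoacyl-tRNA synthetases of the cytosol, which load amino acids onto tRNA, 0 were called, and the median interaction was 0.35. Among 16 chaperones and sensors of the endoplasmic reticulum 0 were called, with a median of -0.42, and among 11 cytosolic heat shock chaperones 0, with a median of 0.29. Of 15 early growth and growth arrest genes 2 were called (13.3%, against 1.71% of all genes), both higher. Ier3, an early response gene that limits cell death, had an interaction of 2.46 ± 0.53 (SE, adjusted p = 0.0183), and Gadd45b, a growth arrest gene, one of 1.73 ± 0.44 (SE, adjusted p = 0.0453). Gadd45b was not detected on any vehicle array, and its lowest LEP-ICV mouse, at 5.94, was close to the highest vehicle mouse, at 5.88. Outside the 4 LEP-ICV arrays Gadd45b was detected on 1 LEP-SQ array only. It therefore passed the detection filter only through the group where it was high, and the share of 13.3% includes it.

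Markers of lipid-laden macrophages gave 6 calls among 17 tested genes (35.3%, against 1.71% of all genes), all higher with brain leptin. All 17 interactions were positive, with a median of 1.38. Gpnmb, a membrane glycoprotein of macrophages under lysosomal stress, had the largest value of the list. With vehicle, Gpnmb had log2 levels of 7.92, 9.01, 7.81 and 8.12 by the subcutaneous route and 8.03, 6.42, 6.30 and 5.07 by the brain route, and with leptin it had 10.11, 6.78, 9.64 and 8.78 and 10.16, 12.64, 11.40 and 11.20. Every LEP-ICV mouse was above every LEP-SQ mouse, though the lowest LEP-ICV mouse, at 10.16, and the highest LEP-SQ mouse, at 10.11, almost met. The interaction of Gpnmb was 4.28 ± 0.93 (SE, adjusted p = 0.0191), with a vehicle part of -1.76. The probe was detected on 1 of 4 VEH-ICV arrays, so that part and the size are uncertain. Mmp12 is the elastase of macrophages. Mmp12 measured 7.68, 8.45, 7.66 and 7.19 (log2 level) in the VEH-SQ mice and 6.73, 5.24, 5.02 and 5.31 in the VEH-ICV mice, against 9.77, 6.4, 8.83 and 7.56 in the LEP-SQ mice and 9.93, 11.15, 9.98 and 9.49 in the LEP-ICV mice. LEP-ICV overlapped with LEP-SQ through a single LEP-SQ mouse at 9.77, and VEH-ICV lay below VEH-SQ without overlap. The interaction of Mmp12 was 4.16 ± 0.76 (SE, adjusted p = 0.00637), with a vehicle part of -2.17 that exceeded its leptin part of 1.99. Mmp12 was not detected on any VEH-ICV array and was detected on every array of the other 3 groups. With VEH-ICV at the lowest detected signal the ratio of the fold changes was at least 6.73-fold. With the class as a block the interaction was 3.83 (adjusted p = 0.0186), and within classes 3.75 (adjusted p = 0.0404).

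Trem2 is the lipid-sensing receptor of these macrophages and Tyrobp its signalling adaptor. Single LEP-ICV mice had log2 levels of Trem2 of 8.02, 8.96, 7.34 and 8.13, those of LEP-SQ 7.11, 4.93, 6.82 and 5.99, those of VEH-ICV 5.49, 5.30, 5.52 and 5.05 and those of VEH-SQ 5.6, 7.71, 6.01 and 6.30. LEP-ICV and LEP-SQ did not overlap, and neither did VEH-ICV and VEH-SQ, though the VEH-SQ mouse at 7.71 reached the LEP-ICV range. The interaction of Trem2 was 2.97 ± 0.58 (SE, adjusted p = 0.011). The probe was detected on 0 of 4 VEH-ICV and 1 of 4 VEH-SQ arrays, so the vehicle part and the size are uncertain. The interaction was 2.79 (adjusted p = 0.0283) with the block and 2.59 (adjusted p = 0.0681) within classes. Cd63, a tetraspanin of late endosomes and lysosomes, had an interaction of 2.86 ± 0.63 (SE, adjusted p = 0.0205), and its 2 probes gave 2.86 and 3.70. The other 2 called members, named after their values were seen, were Lgals3, the galectin of activated macrophages, at 2.23, and Tyrobp at 1.77. Cd9, Ctsk and Ctss, a tetraspanin and a pair of cathepsins, did not pass, at 1.13, 0.68 and 0.99. With the block 5 of the 6 were called and within classes 1, Mmp12. The summed signal of the 17 markers was 10300 to 17700 in VEH-SQ, 12500 to 25400 in LEP-SQ, 7440 to 11100 in VEH-ICV and 28000 to 70900 in LEP-ICV, so LEP-ICV stood above the other groups and VEH-ICV and VEH-SQ overlapped at the low end. In whole liver, more macrophages and more RNA per macrophage cannot be told apart.

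**Figure D2:**
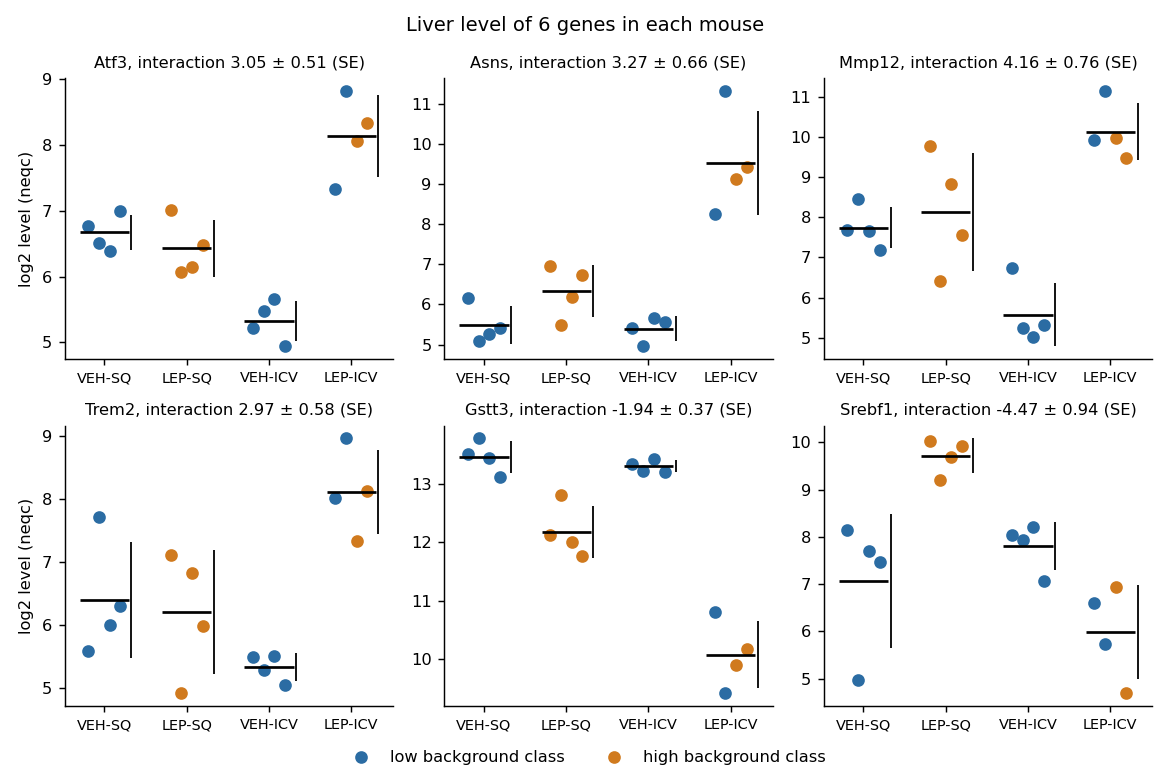
Log2 level of 6 genes in each mouse of the 4 groups, with 1 point per mouse coloured by the background class of its array, a bar at the group mean and a vertical line of 1 SD on either side (n = 4). Atf3, Mmp12 and Trem2 are low in VEH-ICV and high in LEP-ICV, Asns is high and Gstt3 low in LEP-ICV, and Srebf1 is high in LEP-SQ and low in LEP-ICV.

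Other cell type markers mostly did not pass. Of 14 markers of Kupffer cells and C1q 0 passed, 13 were positive, and the median was 0.81. Clec4f, the lectin that defines mouse Kupffer cells, had an interaction of 0.87 (adjusted p = 0.177), and the summed signal of the 14 was 22100 to 25600 in LEP-ICV against 7780 to 12600 over the other 3 groups. Of 6 class II antigen presentation genes, 5 T and B cell genes, 5 neutrophil and monocyte genes and 9 endothelial genes 0 passed, with medians of 0.58, -0.05, 1.31 and 0.41. Of 11 stellate cell and collagen genes 1 passed (9.09%, against 1.71% of all genes). This was Timp1, an inhibitor of matrix metalloproteases, at 2.28 ± 0.57 (SE, adjusted p = 0.0415). Its probe was not detected on any vehicle array. It was detected on 3 LEP-ICV, 1 LEP-SQ and 2 B6 arrays, so it passed the detection filter only through LEP-ICV, where it was high. A second Timp1 probe gave 1.84 (adjusted p = 0.0997) and was not called. Of 9 hepatocyte markers 0 passed, with a median of 0.04. The part of a changed cell make-up in any single gene was not tested. Among 18 lysosomal genes 2 passed (11.1%, against 1.71% of all genes), both higher. These were Ctsz, a cathepsin, at 1.52 ± 0.35 (SE, adjusted p = 0.0282) and Hexa, a subunit of beta-hexosaminidase, at 1.35 ± 0.31 (SE, adjusted p = 0.0266). Ctsa, Ctsb and Ctsd did not pass, at 0.67, 0.54 and 1.25.

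All 18 tested genes of cholesterol synthesis and uptake had a negative interaction, from -4.41 to -0.83 with a median of -1.86. Calls were made for 5 of them (27.8%, against 1.71% of all genes). Msmo1 is the methylsterol monooxygenase that removes methyl groups from lanosterol derivatives. The log2 levels of Msmo1 were 10.83, 10.11, 10.53 and 10.40 in VEH-SQ mice, 10.71, 10.25, 10.64 and 10.11 in VEH-ICV mice, 11.46, 11.69, 12.35 and 11.48 in LEP-SQ mice and 8.67, 7.57, 8.21 and 7.60 in LEP-ICV mice. LEP-SQ lay above every vehicle mouse and LEP-ICV below every vehicle mouse, and the vehicle groups overlapped. The interaction of Msmo1 was -3.69 ± 0.59 (SE, adjusted p = 0.00376), -3.19 (adjusted p = 0.00874) with the class as a block and -3.80 (adjusted p = 0.00948) within classes, with a vehicle part of -0.04. Sqle, squalene epoxidase, is a rate-limiting enzyme of the pathway. With vehicle, Sqle had log2 levels of 8.95, 8.01, 8.44 and 8.67 by the subcutaneous route and 8.59, 8.77, 9.04 and 7.84 by the brain route, and with leptin it had 10.53, 10.43, 10.83 and 10.29 and 7.14, 7.26, 7.46 and 6.46. Here too the LEP-SQ mice were the highest and the LEP-ICV mice the lowest, and the interaction was -3.49 ± 0.76 (SE, adjusted p = 0.0191), with a second, dimmer probe at -1.93 (adjusted p = 0.281). It was -2.82 (adjusted p = 0.0486) with the block.

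Stard4 carries sterols between membranes and Dhcr7 catalyses the last step of cholesterol synthesis. For Stard4 the group means were 10.92 ± 0.78 in VEH-SQ, 10.86 ± 0.49 in LEP-SQ, 11.36 ± 0.59 in VEH-ICV and 8.40 ± 0.66 in LEP-ICV (log2, SD, n = 4), and the interaction was -2.90 ± 0.53 (SE, adjusted p = 0.00701). For Dhcr7 the group means were 8.99 ± 0.87 in VEH-SQ, 9.58 ± 0.41 in LEP-SQ, 8.96 ± 0.62 in VEH-ICV and 6.54 ± 1.14 in LEP-ICV (log2, SD, n = 4), and the interaction was -3.01 ± 0.76 (SE, adjusted p = 0.0453). In both genes every LEP-ICV mouse was below every other mouse. The fifth called member, named after its value was seen, was Nsdhl, a sterol dehydrogenase, at -1.96. Srebf2, the main regulator of the pathway, had -0.83 (adjusted p = 0.495), Hmgcs1, which makes its first dedicated intermediate, -1.34 (adjusted p = 0.107) and Pmvk, phosphomevalonate kinase, -1.30 (adjusted p = 0.228). With the block 3 members were called and the median was -1.86, and within classes 3 were called with a median of -2.24. A sterol response element was searched as TCACNCCAC on both strands. Of the 15 tested members with a promoter entry 1 holds it, Hmgcs1, against 1.44% of all genes in the table, and 0 of the 3 called members with an entry do.

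Srebf1 encodes the factor that turns on fatty acid synthesis in response to insulin. Srebf1 measured 8.14, 4.98, 7.70 and 7.47 (log2 level) in the VEH-SQ mice and 8.04, 7.93, 8.22 and 7.07 in the VEH-ICV mice, against 10.04, 9.21, 9.70 and 9.93 in the LEP-SQ mice and 6.60, 5.73, 6.94 and 4.70 in the LEP-ICV mice. LEP-SQ was above every other mouse. LEP-ICV was below all VEH-ICV mice, while the VEH-SQ mouse at 4.98 was as low as LEP-ICV. The interaction of Srebf1 was -4.47 ± 0.94 (SE, adjusted p = 0.0159), -3.95 (adjusted p = 0.0465) with the block and -4.64 (adjusted p = 0.0485) within classes. The probe was detected on 1 of 4 LEP-ICV arrays and on 3 of 4 arrays of each vehicle group. Of 19 tested genes of lipogenesis and its regulators 2 were called (10.5%, against 1.71% of all genes), both lower, and the median was -0.34. The other called gene was Acss2, which turns acetate into acetyl-CoA, at -2.35 ± 0.57 (SE, adjusted p = 0.0358), and its LEP-ICV levels of 10.08, 9.51, 10.07 and 9.02 lay below all other mice. Mlxipl, the carbohydrate response factor, was at 0.70 (adjusted p = 0.492), Fasn, fatty acid synthase, at 0.05 (adjusted p = 0.976) and Acaca, acetyl-CoA carboxylase, at 0.92 (adjusted p = 0.159). The standard errors of Fasn and Acaca were 0.65 and 0.32.

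Of 19 genes of fatty acid oxidation and ketogenesis 0 were called, 17 were positive and the median was 0.66, with Pdk4, the kinase that restrains glucose oxidation, highest at 2.22 (adjusted p = 0.306). Of 11 lipid droplet and PPARgamma-induced genes 2 were called (18.2%, against 1.71% of all genes), both higher. Apoa4, an apolipoprotein whose liver level is known to follow hepatic fat in mice, had an interaction of 2.75 ± 0.59 (SE, adjusted p = 0.0187). Its log2 levels were 14.21, 14.71, 14.26 and 14.30 in VEH-SQ and 14.16, 13.49, 12.90 and 12.85 in VEH-ICV, which did not overlap, 13.92, 12.01, 13.66 and 13.26 in LEP-SQ mice and 13.58, 15.74, 15.33 and 15.13 in LEP-ICV mice, where a single mouse lay within the LEP-SQ range. Pnpla2, the adipose triglyceride lipase, had a smaller interaction of 1.15 ± 0.30 (SE, adjusted p = 0.0488). Pparg, Cidea and Cidec did not pass, at -0.08, 0.39 and 1.5.

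**Figure D3:**
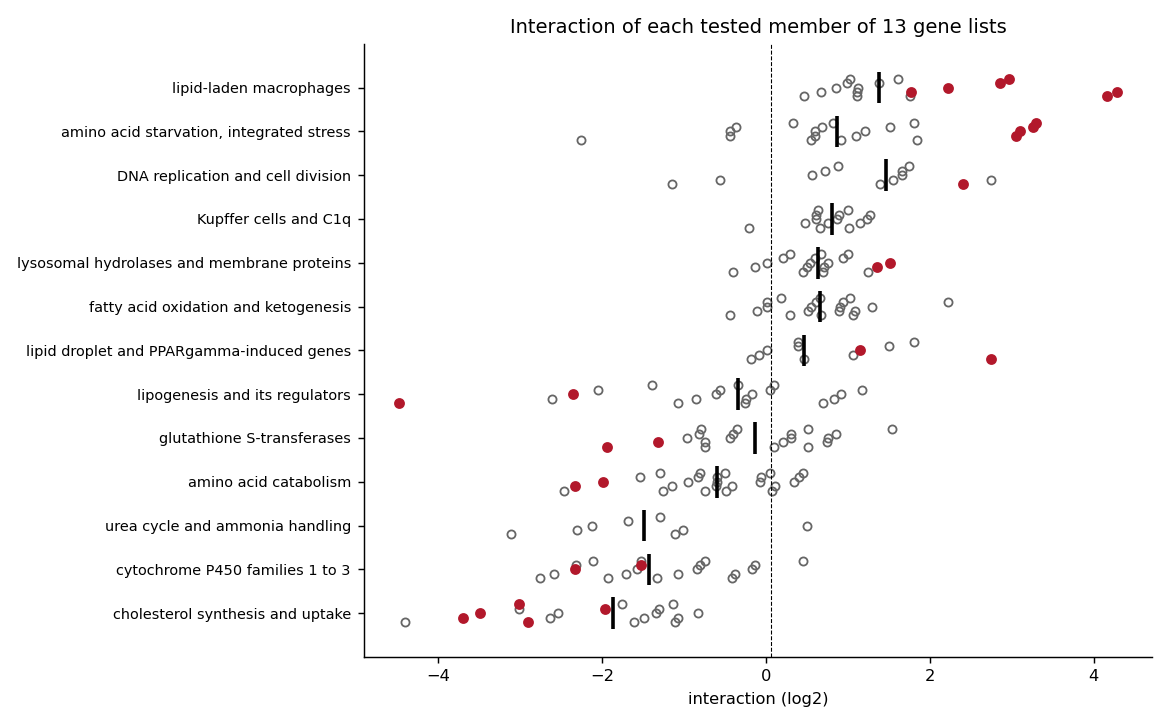
Interaction of each tested member of 13 gene lists on the log2 scale, with called genes filled, the other genes open, a black bar at the median of each list and a dashed line at the median of all genes, 0.06. All 17 lipid-laden macrophage genes lie to the right of 0 and all 18 genes of cholesterol synthesis and uptake to the left.

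Glutathione S-transferases attach glutathione to reactive compounds. Of 20 tested, 2 were called (10%, against 1.71% of all genes), Gstt3 and Gstt1, both of the theta class. The list as a whole had 10 positive and 10 negative values with a median of -0.13. Single LEP-ICV mice had log2 levels of Gstt3 of 10.80, 9.42, 9.90 and 10.17, those of LEP-SQ 12.12, 12.81, 12 and 11.76, those of VEH-ICV 13.34, 13.22, 13.43 and 13.21 and those of VEH-SQ 13.51, 13.78, 13.44 and 13.12. The vehicle groups overlapped and all LEP-ICV mice were below all LEP-SQ mice. The interaction of Gstt3 was -1.94 ± 0.37 (SE, adjusted p = 0.00971), -1.93 (adjusted p = 0.0186) with the block and -1.98 (adjusted p = 0.0363) within classes. For Gstt1 the group means were 12.56 ± 0.21 in VEH-SQ, 12.47 ± 0.29 in LEP-SQ, 12.55 ± 0.17 in VEH-ICV and 11.14 ± 0.36 in LEP-ICV (log2, SD, n = 4), with an interaction of -1.31 ± 0.27 (SE, adjusted p = 0.012) and of -1.34 (adjusted p = 0.0186) with the block. Gstt2, another member of the class, was at 0.86 (adjusted p = 0.326). Gsta1, Gsta2 and Gsta3 were at 0.31, -0.40 and -0.44 and did not pass.

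Enzymes of amino acid breakdown had a median interaction of -0.60 over 25 tested genes, 19 of them negative. Calls were made for 2 of the 25 (8%, against 1.71% of all genes), both lower. Hal, histidine ammonia-lyase, starts the breakdown of histidine. The log2 levels of Hal were 12.82, 12.69, 12.98 and 12.75 in VEH-SQ mice, 12.64, 12.61, 13.15 and 13.06 in VEH-ICV mice, 12.65, 13.28, 12.72 and 12.98 in LEP-SQ mice and 12.43, 9.27, 10.59 and 10.26 in LEP-ICV mice. All LEP-ICV mice were below all others, but a single one, at 12.43, lay near them, and the remaining LEP-ICV mice were at 10.59 or less. The interaction of Hal was -2.33 ± 0.56 (SE, adjusted p = 0.0361). Prodh, which starts proline breakdown, had -1.98 ± 0.49 (SE, adjusted p = 0.0416), and its LEP-ICV levels were 9.79, 7.38, 8.27 and 8.34 with a single mouse overlapping LEP-SQ. Tdo2, Uroc1 and Ftcd did not pass, at -1.26, -0.83 and 0.05. Of 8 urea cycle genes 0 were called, 7 were negative and the median was -1.48, the nearest to the threshold being Ass1, argininosuccinate synthase, at -1.29 (adjusted p = 0.0555). Of 20 cytochrome P450 genes of families 1 to 3, which oxidise drugs and steroids, 19 were negative with a median of -1.42. Of these 20 genes 2 were called (10%, against 1.71% of all genes). Cyp2c50 had -2.33 ± 0.58 (SE, adjusted p = 0.0419) and Cyp1a2 -1.52 ± 0.39 (SE, adjusted p = 0.0488). Second probes were not called, at -1.999 (adjusted p = 0.193) for Cyp2c50 and -1.995 (adjusted p = 0.211) for Cyp1a2. The Cyp2c genes are close in sequence, so the Cyp2c50 probes may take up signal of relatives. Cyp2a5, Cyp2b9 and Cyp2b10 did not pass, at 0.45, -0.38 and -2.58. With the block 0 of the P450 genes were called and the median was -1.07.

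Hamp2 is a copy of the hepcidin gene Hamp, the hormone that limits iron uptake. With vehicle, Hamp2 had log2 levels of 14.86, 15.13, 15.09 and 15.17 by the subcutaneous route and 14.94, 15, 15.49 and 15.23 by the brain route, and with leptin it had 13.56, 14.58, 12.18 and 13.04 and 11.75, 8.12, 9.20 and 10.80. LEP-ICV was below every other mouse, and the interaction was -3.47 ± 0.87 (SE, adjusted p = 0.0419), -3.30 (adjusted p = 0.0787) with the block. Hamp itself was at -0.08 (adjusted p = 0.942), and the near-identical copies may share signal. Of 12 genes of hepcidins and iron handling 2 were called (16.7%, against 1.71% of all genes). The other was Tfr2, the transferrin receptor through which hepatocytes sense iron, at -1.42 ± 0.35 (SE, adjusted p = 0.0408). A second Tfr2 probe gave -1.38 (adjusted p = 0.212) and was not called. Slc40a1, the iron exporter, and Tfrc were at 0.39 and -0.74 and did not pass. Of 14 genes of the growth hormone axis 1 was called (7.14%, against 1.71% of all genes), the receptor Ghr, at -1.32 ± 0.27 (SE, adjusted p = 0.0117). Its LEP-ICV levels were 12.65, 11.99, 12.76 and 12.29, below all vehicle mice, and its LEP-SQ levels 13.73, 13.60, 13.74 and 13.80, above all vehicle mice. A second, dimmer Ghr probe gave -2.14 (adjusted p = 0.128) and was not called. Igf1, Igfals and Igfbp1, targets of the hormone and a fasting-induced binding protein, were at -0.84, -0.89 and 1.46 and did not pass. Of 3 tested red cell genes 1 was called (33.3%, against 1.71% of all genes). This was Alas2, the haem synthesis enzyme of red cell precursors, at -1.36 ± 0.34 (SE, adjusted p = 0.0409). The 2 others had a positive interaction, and the median of the 3 was 0.44.

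Of 12 genes of DNA replication and cell division 1 was called (8.33%, against 1.71% of all genes), and the median was 1.47. Ccnd1, the cyclin of entry into the cell cycle, had 2.41 ± 0.59 (SE, adjusted p = 0.0399). Its other probes gave 2.34 and, near the detection limit, -0.14, so the probes disagree. Mcm2, Mcm4 and Mcm5, subunits of the replicative helicase, did not pass, at 1.66, 0.56 and 1.39. Of 11 genes of gluconeogenesis and glycolysis, 6 sulfotransferases, 15 acute-phase proteins and 16 interferon-induced genes 0 were called, with medians of 0.36, -0.49, -0.08 and -0.19. Of 2 tested bile duct genes 0 passed.

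The gene with the largest interaction of all was Ly6d, a small membrane protein anchored by a lipid. Ly6d measured 10.03, 10.80, 9.90 and 8.72 (log2 level) in the VEH-SQ mice and 9.49, 8.72, 7.27 and 7.82 in the VEH-ICV mice, against 8.63, 6.71, 7.05 and 7.11 in the LEP-SQ mice and 9.59, 11.84, 11.68 and 11.14 in the LEP-ICV mice. All LEP-ICV mice were above all LEP-SQ mice, while the LEP-ICV mouse at 9.59 lay among the vehicle mice and the LEP-SQ mouse at 8.63 did too. The interaction of Ly6d was 5.22 ± 0.78 (SE, adjusted p = 0.00376), 5.58 (adjusted p = 0.00295) with the block and 5.57 (adjusted p = 0.00357) within classes, and a second probe gave 5.09. Nrg1, a ligand of ErbB receptors, had 3.29 ± 0.56 (SE, adjusted p = 0.00376). It was detected on 0 of 4 VEH-ICV and 1 of 4 LEP-SQ arrays, so its size is uncertain. Cbr3, a carbonyl reductase, had 3.39 ± 0.80 (SE, adjusted p = 0.0295), with a LEP-ICV mouse at 7.46 inside the LEP-SQ range and a second probe at 0.95 (adjusted p = 0.403). Nusap1, which binds spindle microtubules, had 2.96 ± 0.65 (SE, adjusted p = 0.0205), and was detected on 0 of 4 LEP-SQ and 1 of 4 VEH-ICV arrays.

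Ces3b, a carboxylesterase of hepatocytes, had the most negative interaction. Single LEP-ICV mice had log2 levels of Ces3b of 10.98, 5.89, 6.74 and 8.0, those of LEP-SQ 11.99, 12.39, 12.63 and 12.24, those of VEH-ICV 10.91, 11.61, 12.01 and 11.93 and those of VEH-SQ 11.25, 10.18, 11.06 and 11.30. The LEP-ICV mice ranged widely, and the one at 10.98 lay inside the range of the vehicle mice. The interaction of Ces3b was -5.08 ± 0.87 (SE, adjusted p = 0.00411), -5.44 (adjusted p = 0.0072) with the block and -5.61 (adjusted p = 0.00701) within classes, and its other probes gave -4.01 and -1.58. Sucnr1, the receptor for succinate, had -4.63 ± 0.89 (SE, adjusted p = 0.00971), with detection on 1 of 4 LEP-ICV arrays. Its log2 levels were 9.28, 9.09, 9.13 and 10.04 in LEP-SQ mice and 5.04, 5.17, 7.26 and 4.62 in LEP-ICV mice, with the vehicle mice between 5.23 and 7.38, so that LEP-SQ stood above them and a single LEP-ICV mouse lay among them. Tlcd2, a membrane protein of the TLC family, had -3.66 ± 0.61 (SE, adjusted p = 0.00376), and its second probe gave -3.05. It was detected on 1 of 4 LEP-ICV arrays, so the size is uncertain. Gm4956, a predicted gene, had -3.39 ± 0.52 (SE, adjusted p = 0.00376), and Dct, dopachrome tautomerase of melanin synthesis, -3.47 ± 0.89 (SE, adjusted p = 0.0467). Neither was detected on any LEP-ICV array. For Gm4956, detected on every array of the other 3 groups, the ratio of the fold changes was at least 7.26-fold toward lower values with brain leptin. Dct was detected on 1 of 4 arrays of each vehicle group, so its size is uncertain.

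**Figure D4:**
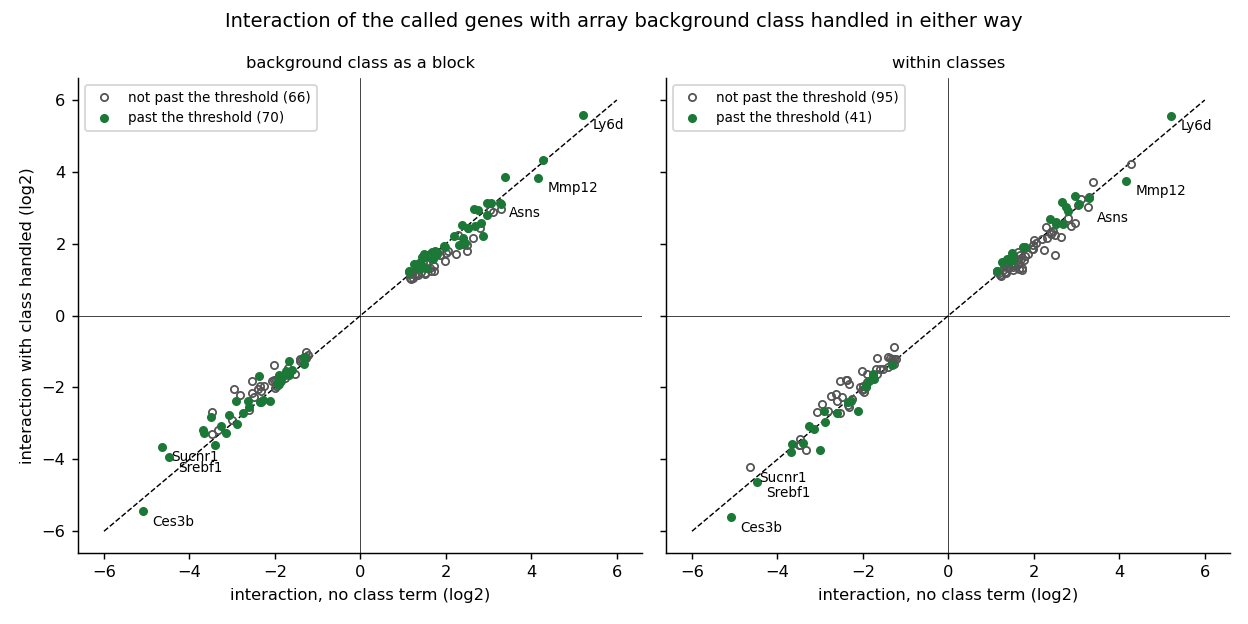
Interaction of the 136 called genes without a class term on the horizontal axis against the value with background class as a block (left) and within classes (right), all on the log2 scale, with genes past the threshold filled. All points keep their sign, and 70 and 41 of them pass.

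Handling of the background class changed many calls. The named genes that lost their call with the block were Fgf21, Nupr1, Dct, Hamp2, Gadd45b, Acss2, Dhcr7, Pnpla2, Prodh, Cyp2c50, Cyp1a2, Tfr2, Ccnd1, Ctsz, Timp1 and Alas2. The interaction with the block was 0.68 to 1.15 times the one without it over the 136 genes, with a median of 0.93. Only 2 LEP-ICV arrays enter the within-class value, and how far this lowered its count was not tested. A consensus correlation of 0.41 between arrays of a class was estimated when it entered as a random block, which left 64 genes higher and 46 lower.

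The LEP-ICV mice differed among themselves. Over the 136 called genes, the shift from the VEH-ICV mean in the direction of the interaction had a median of 0.92 in mouse Liver_LEP_ICV_1003, 1.09 in mouse Liver_LEP_ICV_1017, 1.60 in mouse Liver_LEP_ICV_1019 and 1.86 in mouse Liver_LEP_ICV_1014. Mouse Liver_LEP_ICV_1003 was the least shifted of the 4 for 76 genes and mouse Liver_LEP_ICV_1014 the most shifted for 79. Without mouse Liver_LEP_ICV_1017 the counts rose to 231 higher and 179 lower, and without mouse Liver_LEP_ICV_1003 to 181 and 120. Without mouse Liver_LEP_ICV_1014 they fell to 22 and 26, and without the mouse Liver_VEH_SQ_1034, which had the fewest detected probes, to 26 and 29. Atf3, Mmp12, Gstt3, Trem2, Asns and Srebf1 stayed called without any single mouse. In the 16 arrays alone with the class as a block, a fit added after the data were seen, Atf3 was the only one of these 6 called, and Trem2 was also not called in the 16 arrays without the block.

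**Figure D5:**
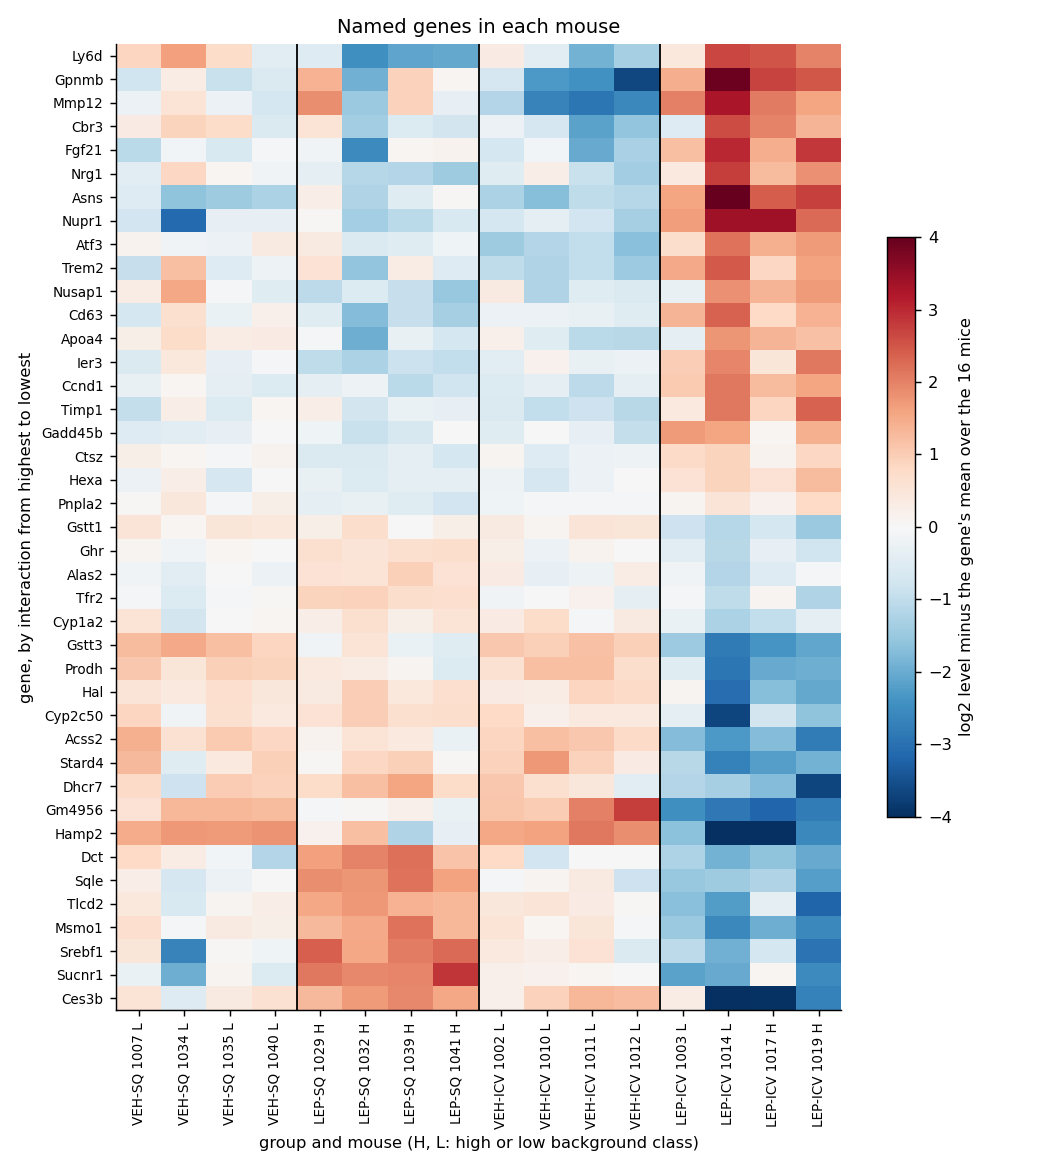
Log2 level of the 41 named genes in each of the 16 mice, less the gene's mean over the 16, with genes ordered by interaction and mice by group. Mouse Liver_LEP_ICV_1003 is paler than mouse Liver_LEP_ICV_1014 in most genes, and the lowest genes are red in LEP-SQ and blue in LEP-ICV.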

How the data were processed

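The authors deposited probe intensities, exported from BeadStudio 2.0, and beside each a detection value that rises with the signal, so 1 minus it served as the detection p-value. The deposited log2 values came from lumi (variance stabilization, robust spline normalization; version not given in the sources used here). Intensities were corrected and quantile normalized with neqc (offset 16) in limma 3.58.1 under R 4.3.3. A probe entered when at least 4 arrays had a detection p-value under 0.01, and limma tested it in 1 model of all 26 arrays, with Benjamini-Hochberg adjustment over the probes and a threshold of 0.05. A gene stands by its brightest tested probe. The platform annotation gave 23978 probes 1 symbol, and 23962 matched RefSeq. Of 29 called genes with several tested probes, those of Ankrd12, Ccnd1 and Mmab disagreed in sign. Named genes are the 6 markers, the 8 largest interactions each way, the 5 largest each way called in all 3 class settings, and up to 4 called and 3 uncalled members of each list. The genes, lists and the class cut at 140 were chosen with earlier results of these data known. A bound sets a group with no detected array to the lowest detected signal of each of its arrays, and is printed where the other 3 groups were detected throughout. Each array is a different mouse. Chips and dates were not used here. With 1 array per mouse, p-values measure the spread between mice and that between arrays together. The main fit was also run on simulated data with known interactions. These data held no effect of background class, so they could not test how the class was handled.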

Additional observations from a re-analysis of the deposited data

Results flagged for a closer look

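The 41 genes below were chosen from those whose leptin effect differed between the routes in limma's test of the difference itself, so their passing it was fixed by the choice. With the background class as a block, those listed in the report as losing their call no longer passed. The interaction, on the log2 scale, was positive for Ly6d (5.22), Gpnmb (4.28), Mmp12 (4.16), Cbr3 (3.39), Fgf21 (3.30), Nrg1 (3.29), Asns (3.27), Nupr1 (3.10), Atf3 (3.05), Trem2 (2.97), Nusap1 (2.96), Cd63 (2.86), Apoa4 (2.75), Ier3 (2.46), Ccnd1 (2.41), Timp1 (2.28), Gadd45b (1.73), Ctsz (1.52), Hexa (1.35) and Pnpla2 (1.15). It was negative for Ces3b (-5.08), Sucnr1 (-4.63), Srebf1 (-4.47), Msmo1 (-3.69), Tlcd2 (-3.66), Sqle (-3.49), Dct (-3.47), Hamp2 (-3.47), Gm4956 (-3.39), Dhcr7 (-3.01), Stard4 (-2.90), Acss2 (-2.35), Hal (-2.33), Cyp2c50 (-2.33), Prodh (-1.98), Gstt3 (-1.94), Cyp1a2 (-1.52), Tfr2 (-1.42), Alas2 (-1.36), Ghr (-1.32) and Gstt1 (-1.31).

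In 7 of 164 groups of 4 mice, a single mouse lay far from the other 3 by Dixon's ratio, a number that chance gives in about 1 of 20 groups. mouse Liver_VEH_ICV_1002 had the highest Mmp12 of its group at 6.73, mouse Liver_LEP_SQ_1032 the lowest Fgf21 at 7.90 and mouse Liver_LEP_ICV_1017 the lowest Gadd45b at 5.94. mouse Liver_VEH_SQ_1034 was low for Nupr1 at 5.08 and for Dhcr7 at 7.69, and mouse Liver_VEH_SQ_1007 was low for Gm4956 at 9.15. mouse Liver_LEP_SQ_1039 had the highest Alas2 at 11.63. All values are log2 levels.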

How the results depend on the processing

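No paired analysis was possible because the mice carry individual numbers that are not shared between groups. None of the 41 genes changed sign under the alternatives run for it (15, or 14 for Gadd45b and Timp1) or with any mouse left out. Genes called higher numbered 73 and genes called lower 63. The class as a block left 41 lower, the within-class contrast 26 higher and 21 lower, median scaling 48 higher, no filter on detection 40 lower, and a fit of the 16 arrays alone 36 higher and 40 lower. That fit with the class as a block, added after the data were seen, left 6 higher and 15 lower. Array quality weights gave 866 higher and 585 lower, 1206 genes between the vehicle groups and 2815 between the leptin groups. Between the leptin groups 1183 genes became 426 with the block, 316 within classes, 515 with the class as a random block, 517 with the background signal as a covariate and 234 in the 16 arrays with the block. The causes were not tested.

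With each mouse left out in turn, 22 to 231 genes were higher, 26 to 179 lower, 0 to 1 differed between vehicle groups (1 without mouse Liver_VEH_ICV_1002) and 545 to 3023 between leptin groups (680 without Liver_LEP_SQ_1029, 572 without Liver_LEP_SQ_1039, 581 without Liver_LEP_SQ_1041, 558 without Liver_LEP_ICV_1019, 545 without Liver_LEP_ICV_1014 and 3023 without Liver_LEP_ICV_1017). Counts of higher and lower genes were 43 and 36 without mouse Liver_VEH_SQ_1035, 40 and 35 without Liver_VEH_SQ_1040, 53 and 40 without mouse Liver_LEP_SQ_1029, 31 and 33 without Liver_LEP_SQ_1032, 40 and 33 without Liver_LEP_SQ_1039, 37 and 38 without Liver_LEP_SQ_1041, 60 and 40 without mouse Liver_VEH_ICV_1002, 30 and 27 without Liver_VEH_ICV_1011, and 42 and 47 without mouse Liver_LEP_ICV_1019. Of the named genes' values with a mouse left out, 421 stayed past the threshold and 235 did not, and under the other settings 447 did and 166 did not. Pnpla2, Gadd45b and Ccnd1 lost their call in 14 of the 16 fits with a mouse left out, and Cyp1a2, Dhcr7 and Tfr2 in 13. Atf3, Ly6d, Msmo1 and Tlcd2 passed in every setting and without any mouse, while Fgf21, Nupr1, Dhcr7 and Hamp2 were among those that lost their call with the block. Groups of 4 arrays, of uneven background, limit what can be called, and probes near the detection limit give compressed differences.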

Other observations

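The following called genes were picked from the calls after their values were seen, with no list or number tested behind them, so they say nothing of their pathways as a whole. Some act at the mitotic spindle or centromere and had a positive interaction. Besides Nusap1, Haus8 had an interaction of 2.20 ± 0.48 (SE), Spag5 2.05 ± 0.52, Gtse1 2.0 ± 0.46, Cenpa 1.38 ± 0.33 and Cenpt 1.22 ± 0.31. With the background class as a block 3 of these 6, Nusap1, Haus8 and Cenpa, stayed past the threshold in limma's test, with adjusted p of 0.0291, 0.0341 and 0.0367. Others encode plasma proteins of the complement and contact systems and had a negative interaction. C8b had -2.61 ± 0.64, C9 -2.26 ± 0.58, Klkb1, the plasma kallikrein, -1.85 ± 0.35, C1rl -1.26 ± 0.29 and Masp1, a protease of the lectin pathway, -1.23 ± 0.28. With the block only Klkb1 of these 5 stayed past the threshold, with an adjusted p of 0.0186.

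Levels were also measured in mice outside the contrast, the 4 LEP-ICV* mice, assigned brain leptin without weight loss, and the B6 mice. Asns had log2 levels of 5.57 ± 0.45 (SD, n = 4) in LEP-ICV* and 5.74 ± 0.62 (SD, n = 6) in B6, against 9.53 ± 1.29 in LEP-ICV. Srebf1 had 8.47 ± 1.51 in LEP-ICV* and 9.80 ± 0.83 in B6, against 9.72 ± 0.37 in LEP-SQ and 5.99 ± 1.0 in LEP-ICV. Mmp12 had 6.76 ± 0.86 in LEP-ICV* and was not detected on any B6 array, and Gstt3 had 13.01 ± 0.28 and 11.92 ± 0.34. All B6 arrays are in the high background class, and whether that class bears on these levels was not tested.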
